A study of Mus musculus with 8 samples.

Results

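The 40 genes described here encode DNA damage checkpoint and repair proteins, and were read from the gene count table by symbol over all 4 sorted populations. All 40 were found among 24108 named genes, and all 40 passed the filter on low counts. They form a pathway list, and the rule that picked them uses no measured value, although it was drawn up with earlier results of these data known. By role, 13 act in homologous recombination, 8 in the Fanconi anaemia pathway, 5 in mismatch and base excision repair, 6 in checkpoint signalling and 5 in end joining, and 3 form the MRN complex.

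Broken or stalled DNA is sensed by the kinases ATM, which is recruited to breaks by the MRN complex, and ATR, which binds single-stranded DNA through ATRIP, and these switch on the effector kinases CHK2 and CHK1. Homologous recombination copies an intact sister chromatid and therefore operates mainly in cells that are replicating or have replicated their DNA, whereas end joining rejoins broken ends in any phase of the cell cycle. Lymphocytes also need end joining to assemble their antigen receptor genes, and several recombination, Fanconi and excision genes are transcribed mostly in dividing cells.

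Mice carried a GFP allele of Foxp3 that also encodes the diphtheria toxin receptor together with a Thy1.1 allele of Foxp3, 1 copy of a Cre recombinase controlled by CD4 and tamoxifen (CD4CreER/wt), and 1 copy of a Cre-dependent tdTomato gene (R26lsl-tdTomato/wt). Foxp3 is the factor that defines regulatory T (Treg) cells. All animals were kept from breeding on AVNM (an abbreviation left as the labels give it) with an amino acid-defined diet, were given tamoxifen and diphtheria toxin over about 3 weeks, and then chow and fecal microbiota from SPF mice. Sorting followed after 12 days, from mesenteric lymph nodes, and the age of the mice is not given in the labels. Cells with tdTomato ("marked") descend, by the stated design, from extrathymic cells without Foxp3. The toxin receptor is named for the GFP allele only, so marked Thy1.1 cells may include cells that already held Foxp3. The populations were unmarked Thy1.1, marked Thy1.1, unmarked GFP and marked GFP cells, with 2 libraries each, numbered 1 and 2 for Thy1.1 and 3 and 4 for GFP as in the table's columns. Nothing in the labels ties a library to its own mouse, and the p-values therefore reflect only the scatter of these 2 libraries per population, which could be technical.

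Libraries held 38085686 to 47908198 counts. Cd4 lay at 301 to 507 CPM (counts scaled to a common library size) and Foxp3 at 126 to 201 CPM in all 8. Of 11 tested Treg and CD4 T cell genes, 2 were higher (18.2%) and 3 lower (27.3%) in marked GFP than in marked Thy1.1 cells. Of all tested genes 8.01% were higher and 6.82% lower (edgeR adjusted p under 0.05). Cd4 and Ctla4 were the higher genes, and Foxp3, Ikzf2 and Ikzf4 the lower. Marker genes of other cells stood out in 2 libraries. In unmarked GFP library 3, the summed level of 18 myeloid and dendritic cell genes was 344 CPM against 105 to 205 CPM elsewhere. Marked GFP library 3 held 47.9 CPM over 5 erythroid genes against 1.84 to 6.12 CPM elsewhere. For B and plasma cell genes (11 in the table, Tnfrsf17 at 0 in all libraries) the sums were 20.4 to 48.0 CPM. For CD8 and NK cell genes (8, with Klra8 at 0) they were 18.8 to 46.6 CPM, and for stromal and epithelial genes (11, with Lyve1 at 0) 155 and 191 CPM in marked GFP cells against 226 to 317 CPM elsewhere, most of it Pecam1. H2-Ab1 and Clec9a of the myeloid list were at 0 in every library. Exons of 20 of the 40 genes overlap those of another annotated gene, and reads of overlapping genes cannot be told apart with a kit that does not mark strand. Rad54b had the largest overlap, 2068 bases, and overlaps Fsbp on the same strand and Gm11832 on the other. Rad54l overlapped by 1184 bases, Rbbp8 by 402 and Fancd2 by 257, each with a gene on the other strand.

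Levels between genes were compared per kb of annotated exon. The most abundant members were Xrcc5, with a mean of 25.4 CPM per kb over the 8 libraries, Parp1 with 25.0, Msh6 with 22.9 and Xrcc6 with 18.7. Xrcc5 and Xrcc6 encode the Ku subunits that cap broken ends, Parp1 an enzyme that marks strand breaks with poly(ADP-ribose), and Msh6 a mismatch recognition subunit. The MRN genes followed, with Rad50 at 15.1, Nbn at 14.7 and Mre11a at 10.6 CPM per kb. The last places were held by recombination genes, with Brca2 at 0.74, Rad54b at 0.625, Exo1 at 0.567 and Bard1 at 0.265 CPM per kb. Xrcc5 (21.7 to 30.2 CPM per kb) and Parp1 (18.9 to 34.3) overlapped between libraries, so their order is not established, while the first 4 and the last 4 genes did not overlap in any library.

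**Figure D1:**
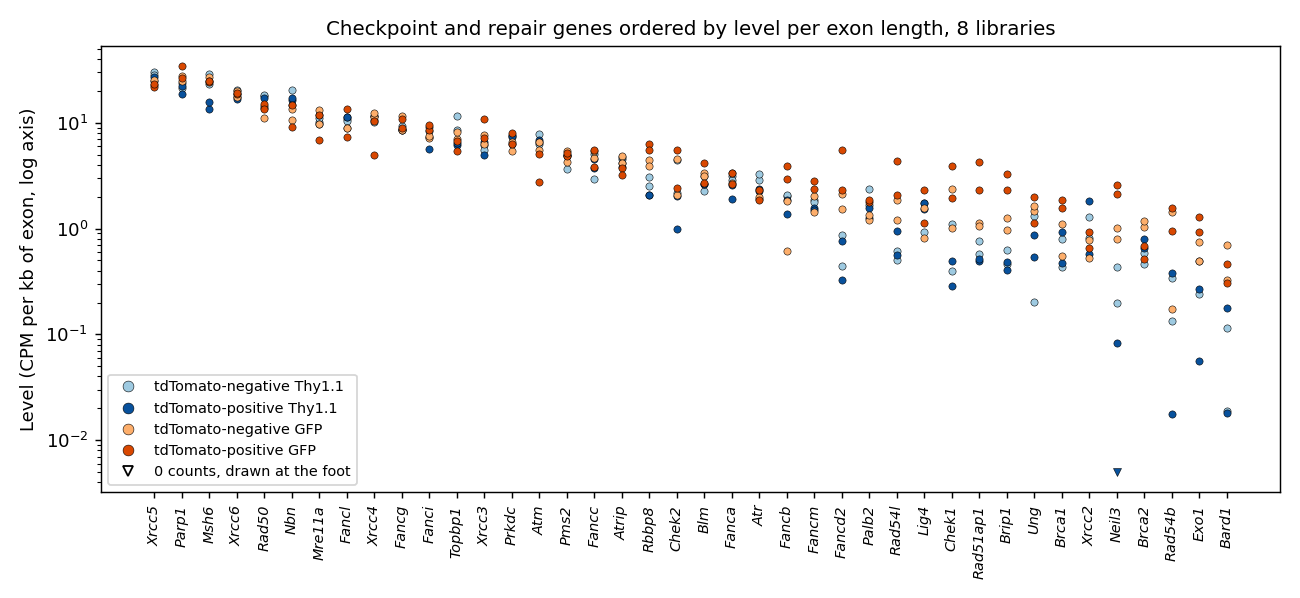
Level of each of the 40 genes in CPM per kb of exon (log axis), 1 point per library coloured by population, ordered by the mean over 8 libraries from Xrcc5 at 25.4 to Bard1 at 0.265. The 8 points of Xrcc5 and Xrcc6 lie close together, whereas points of genes low in the order such as Neil3, Chek1 and Fancd2 spread widely.

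The genes differed in how far their libraries spread. Xrcc6 ranged from 75.7 to 92.1 CPM over all libraries, a ratio of 1.22, Fancg from 32.4 to 44.4 CPM (1.37) and Xrcc5 from 55.3 to 77.3 CPM (1.40). At the other end Fancd2 ranged from 2.60 to 43.5 CPM (16.8), Exo1 from 0.471 to 10.96 CPM (23.3), Bard1 from 0.102 to 3.96 CPM (38.7) and Rad54b from 0.102 to 9.11 CPM (89.1), and Neil3 from 0 to 14.4 CPM. The widest ranges were in genes of low level. The order was not strict, since Msh6 (2.15) and Nbn (2.23), at higher levels, ranged further than Fanca (1.77) or Blm (1.86). For Rad54b and Bard1 much of that range lay within populations. Rad54b had 8.22 CPM in unmarked GFP library 3 and 1.01 CPM in library 4, and 0.102 and 2.22 CPM in the 2 marked Thy1.1 libraries.

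The central comparison was of marked cells, GFP against Thy1.1. Of the 40 genes, 10 were higher in marked GFP cells and 0 were lower, where 8.01% of all 13989 tested genes were higher and 6.82% lower (edgeR quasi-likelihood test, Benjamini-Hochberg adjusted p under 0.05, here and below). Over the 40 genes the median log2 fold change was 0.40, and 28 were above 0. Over all tested genes the median was -0.01. The calls lay mostly in genes of low level: 7 of 18 members with a mean under 20 CPM were higher (median 1.69). At 20 CPM or more, 3 of 22 were (median 0.04). The higher genes, called risen below for this comparison only, included the recombination genes Rbbp8, Brip1, Rad51ap1, Rad54l and Exo1. The others were the Fanconi gene Fancd2, the excision and mismatch genes Neil3, Msh6 and Parp1, and the checkpoint kinase gene Chek1. Of these 10, 9 had their highest mean of the 4 populations in marked GFP cells, and Msh6 did not. In bulk RNA a higher level may come from more cells that hold the RNA or from more RNA per cell, which cannot be told apart.

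**Figure D2:**
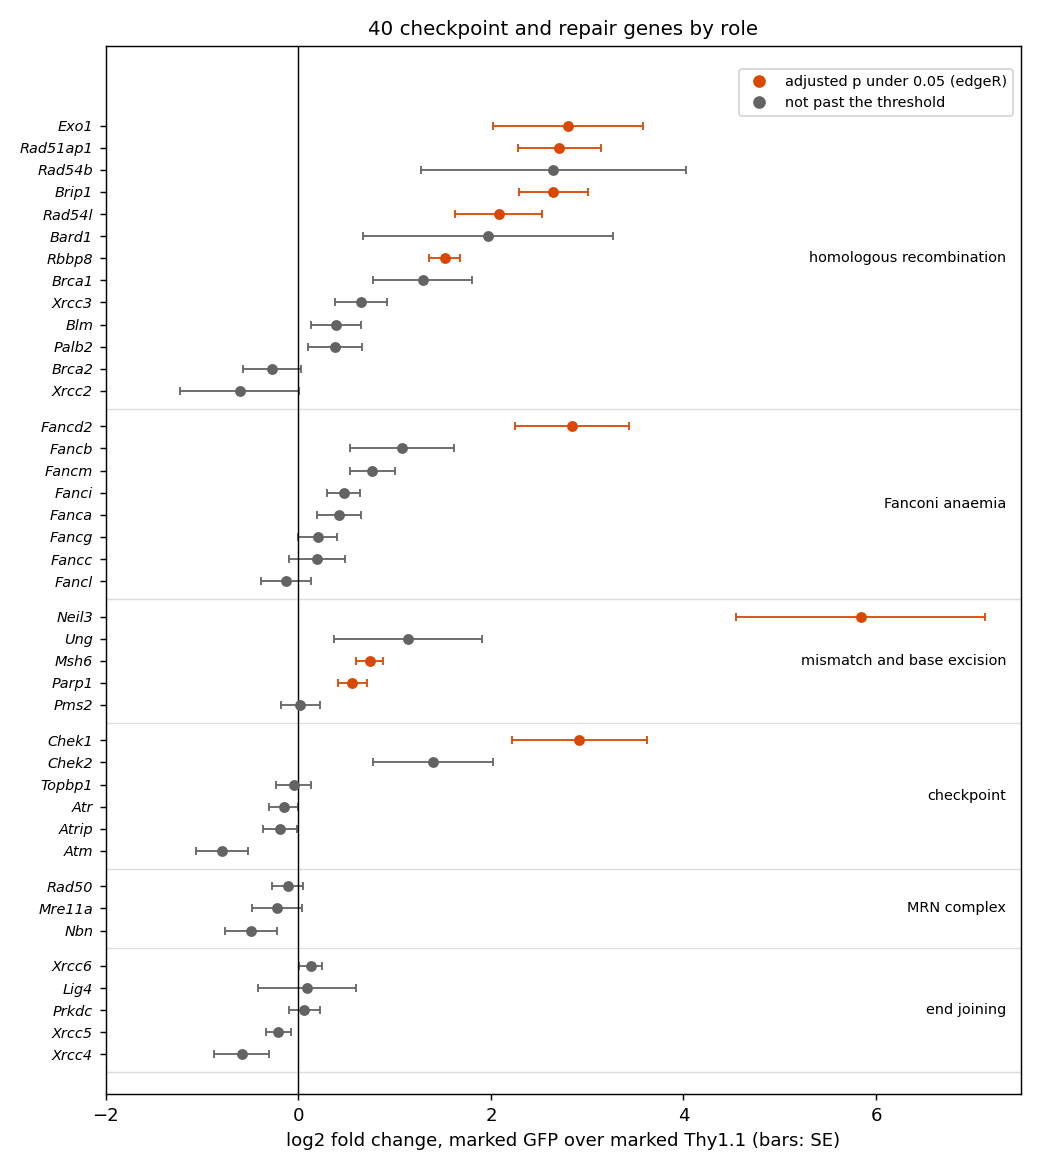
Log2 fold change of each gene in marked GFP over marked Thy1.1 cells (points, with SE as bars; 2 libraries per population), by role. The 10 orange points passed the test and all lie above 0, from 0.56 for Parp1 to 5.84 for Neil3, whereas the MRN and end joining genes lie between -0.59 and 0.13.

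In homologous recombination, 5 of 13 genes rose (38.5%), 0 fell and the median was 1.52, where 8.01% of all tested genes were higher. Rbbp8 encodes CtIP, which starts the trimming of broken ends. It had 26.3 and 25.8 CPM in marked Thy1.1 cells, 31.9 and 38.1 CPM in unmarked Thy1.1, 56.1 and 48.8 CPM in unmarked GFP and 79.7 and 69.6 CPM in marked GFP cells. The 4 populations did not overlap, and marked GFP exceeded marked Thy1.1 by 1.52 ± 0.16 (SE of log2, 2 libraries each; edgeR adjusted p = 0.00193). Here and below, a lack of overlap between populations of 2 libraries is easily met, and its share over all genes was not computed. Brip1 encodes a helicase that partners BRCA1. It lay at 3.01 and 3.59 CPM in marked Thy1.1, 4.68 and 3.48 CPM in unmarked Thy1.1, 7.20 and 9.39 CPM in unmarked GFP and 24.3 and 17.1 CPM in marked GFP cells. Thy1.1 libraries overlapped each other, both GFP populations stood above them, and marked GFP exceeded marked Thy1.1 by 2.65 ± 0.36 (edgeR adjusted p = 0.00387).

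Rad51ap1, which helps the recombinase form joint molecules, had 2.39 and 2.47 CPM in marked Thy1.1 and 11.2 and 20.6 CPM in marked GFP cells, with 2.77 and 3.67 CPM in unmarked Thy1.1 and 5.49 and 5.06 CPM in unmarked GFP cells. Its log2 difference between the marked populations was 2.71 ± 0.43 (edgeR adjusted p = 0.00703). Rad54l encodes a motor protein of strand exchange, and its exons overlap those of Lrrc41 on the other strand. It rose from 4.34 and 7.29 CPM to 33.2 and 15.95 CPM, by 2.08 ± 0.45 (edgeR adjusted p = 0.0214), with both unmarked GFP libraries (9.28 and 14.4 CPM) between. Exo1, an exonuclease that extends trimmed ends, had 0.471 and 2.24 CPM in marked Thy1.1 against 7.87 and 10.96 CPM in marked GFP cells, with 2.03 and 4.16 CPM in unmarked Thy1.1 and 6.36 and 4.16 CPM in unmarked GFP cells (2.80 ± 0.78, edgeR adjusted p = 0.0488). This call was the one nearest to the threshold.

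The other 8 recombination genes did not pass. Brca1, which directs repair towards recombination, had 7.92 and 4.07 CPM in marked Thy1.1 and 16.0 and 13.4 CPM in marked GFP cells without overlap (1.29 ± 0.51, edgeR adjusted p = 0.133). Its partner gene Bard1 was low and uneven, with 0.102 and 1.01 CPM against 2.62 and 1.72 CPM (1.97 ± 1.30). Brca2, the loader of the recombinase, was one of 2 recombination genes below 0. It had 8.88 and 10.9 CPM in marked Thy1.1, 9.385 and 7.01 CPM in marked GFP and 14.1 and 16.2 CPM in unmarked GFP cells, the highest of the 4 populations, and the difference between marked cells was -0.27 ± 0.30 (edgeR adjusted p = 0.61). Palb2, which links BRCA1 to BRCA2, was at 0.38 ± 0.28, the helicase gene Blm at 0.39 ± 0.26, Rad54b at 2.65 ± 1.38, and the recombinase paralogs Xrcc2 and Xrcc3 at -0.61 ± 0.62 and 0.65 ± 0.27.

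In the Fanconi anaemia pathway, which unhooks DNA crosslinks, 1 of 8 genes rose (12.5%), 0 fell and the median was 0.45. With so few genes, 1 call is near the 8.01% of all tested genes that were higher. Fancd2 encodes a subunit of the clamp that the core complex ubiquitinates. It had 2.60 and 6.08 CPM in marked Thy1.1, 6.84 and 3.55 CPM in unmarked Thy1.1, 16.9 and 12.1 CPM in unmarked GFP and 18.4 and 43.5 CPM in marked GFP cells (2.84 ± 0.59 between marked cells, edgeR adjusted p = 0.0177). All 4 GFP libraries lay above all 4 Thy1.1 libraries. The gene of the other clamp subunit, Fanci, did not pass, with 42.2 and 32.9 CPM in marked Thy1.1 and 49.3 and 54.6 CPM in marked GFP cells (0.47 ± 0.17, edgeR adjusted p = 0.0994), and its exons overlap those of Polg. Among core complex and helicase genes Fancm was at 0.77 ± 0.23 (edgeR adjusted p = 0.0639), Fancb at 1.08 ± 0.54, Fanca at 0.42 ± 0.23, Fancg at 0.20 ± 0.20, Fancc at 0.19 ± 0.29, and Fancl, the ubiquitin ligase gene, at -0.13 ± 0.26.

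Of 5 mismatch and base excision genes 3 rose (60%) and 0 fell, with a median of 0.74, where 8.01% of all tested genes were higher. Neil3 encodes a glycosylase that removes damaged bases. It had 0 and 20 counts in the marked Thy1.1 libraries and 520 and 536 counts in marked GFP cells, or 0 and 0.457 CPM against 11.7 and 14.4 CPM. Unmarked Thy1.1 cells had 1.101 and 2.405 CPM and unmarked GFP cells 5.62 and 4.47 CPM, so the 4 populations did not overlap. The fitted difference between marked cells was 5.84 ± 1.29 (edgeR adjusted p = 0.022), and its size hung on the library at 0: leaving out that marked Thy1.1 library (1) gave 4.77, and leaving out its partner (2) gave 12.16. Msh6 differed in another way. It had 59.0 and 68.5 CPM in marked Thy1.1 cells and 101.6 to 126.6 CPM in the other 6 libraries, with 105.3 and 106.7 CPM in marked GFP cells (0.74 ± 0.14, edgeR adjusted p = 0.0136). The low population was marked Thy1.1, and marked GFP cells were not above unmarked cells. Parp1 had 119.3 and 100.2 CPM in marked Thy1.1 against 142.1 and 181.3 CPM in marked GFP cells (0.56 ± 0.15, edgeR adjusted p = 0.0441). Unmarked Thy1.1 cells had 113.3 and 125.6 CPM and unmarked GFP cells 132.3 and 146.1 CPM. Marked GFP library 3 thus lay between the unmarked GFP libraries. Ung, which removes uracil from DNA, varied within populations, from 1.101 to 7.19 CPM in unmarked Thy1.1 cells alone, and was at 1.14 ± 0.77. Pms2, a mismatch repair nuclease gene, was at 0.02 ± 0.20.

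Among checkpoint genes 1 of 6 rose (16.7%), 0 fell and the median was -0.10. In so small a group 1 call is near the 8.01% of all tested genes that were higher. Chek1 encodes CHK1, the kinase that holds the cell cycle when replication stalls. It had 1.33 and 2.285 CPM in marked Thy1.1, 1.82 and 5.11 CPM in unmarked Thy1.1, 10.97 and 4.69 CPM in unmarked GFP and 18.25 and 9.025 CPM in marked GFP cells (2.92 ± 0.70 between marked cells, edgeR adjusted p = 0.0303). In both GFP populations library 3 had the higher level. The genes upstream of CHK1 did not pass the test. Atr had 56.2 and 54.0 CPM in marked Thy1.1 and 43.95 and 55.1 CPM in marked GFP cells (-0.15 ± 0.15), Atrip, whose exons overlap those of Trex1, was at -0.19 ± 0.18 and Topbp1, an activator of ATR, at -0.05 ± 0.18. Atm had 71.6 and 68.0 CPM in marked Thy1.1 cells and 28.5 and 52.6 CPM in marked GFP cells, the lowest 2 values of the 8 libraries, and did not pass (-0.79 ± 0.27, edgeR adjusted p = 0.0904), although DESeq2 called it lower (-0.81, DESeq2 adjusted p = 0.0172). Its effector gene Chek2 was at 1.40 ± 0.62 (edgeR adjusted p = 0.176), with 2.95 and 6.13 CPM against 16.6 and 7.31 CPM.

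Of the 3 MRN and 5 end joining genes, 0 rose and 0 fell, with medians of -0.22 and 0.06. All tested genes were higher in 8.01% and lower in 6.82%, so 0 calls among so few genes are near the background. Mre11a, the nuclease gene of the complex, was at -0.22 ± 0.26, Rad50 at -0.11 ± 0.16 and Nbn, which recruits ATM, at -0.49 ± 0.27. Xrcc6 was at 0.13 ± 0.12, Xrcc5 at -0.21 ± 0.13, Prkdc, the gene of the kinase that Ku recruits, at 0.06 ± 0.16, and the ligase gene Lig4 at 0.09 ± 0.51. Xrcc4, the partner of that ligase, had 48.3 and 49.2 CPM in marked Thy1.1 cells and 43.7 and 21.0 CPM in the 2 marked GFP libraries (-0.59 ± 0.29, edgeR adjusted p = 0.225). The standard errors of the Ku and kinase genes were among the smallest of the 40, whereas those of Lig4, Xrcc2 and Rad54b leave room for sizeable differences.

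**Figure D3:**
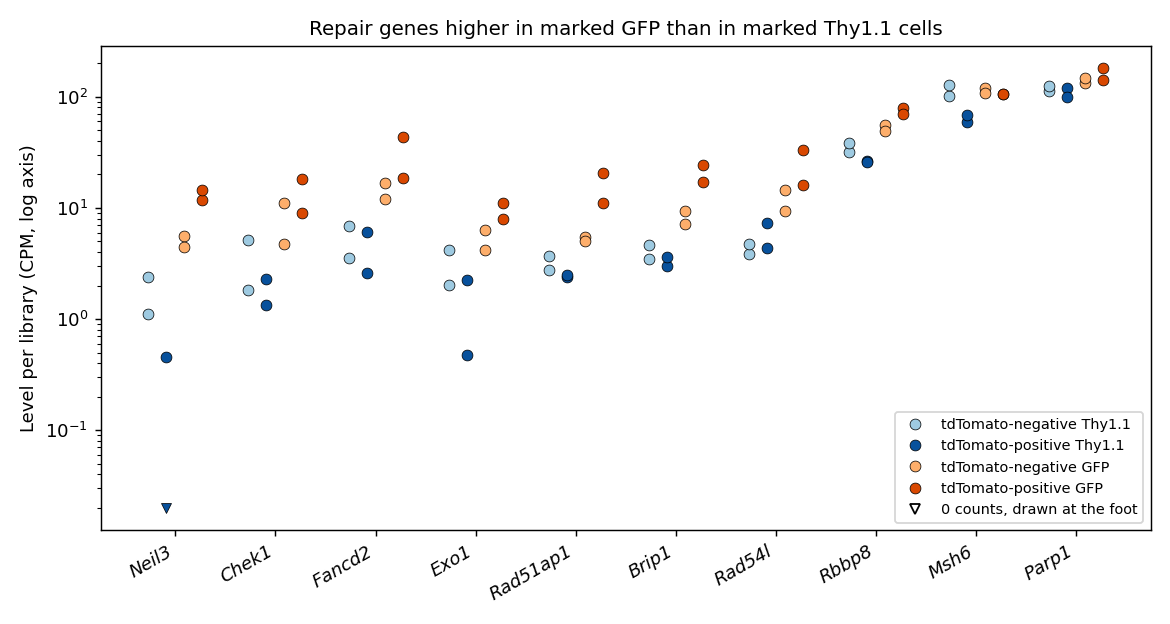
Level per library (CPM, log axis) of the 10 genes that rose in marked GFP over marked Thy1.1 cells, 2 points per population. For Rbbp8 and Neil3 the 4 populations do not overlap, and for Msh6 the marked Thy1.1 libraries (59.0 and 68.5 CPM) stand below the rest.

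Brip1, Rbbp8 and Neil3 kept their call with any 1 of the 8 libraries left out, but the total of 10 fell to 3 without marked Thy1.1 library 1, to 4 without marked Thy1.1 library 2 and to 6 without marked GFP library 3. In the same fits the share of all tested genes called higher fell from 8.01% to 1.34%, 1.41% and 3.67%. Parp1 and Exo1 each passed in 1 of these 8 fits, and without marked GFP library 3 or 4 respectively Xrcc4 (-1.27, edgeR adjusted p = 0.00879) and Atm (-1.31, edgeR adjusted p = 0.00934) passed as lower. Fitted sizes moved by more than 1.5-fold for Rad54l without marked GFP library 3 (1.40), for Fancd2 without marked Thy1.1 library 2 (3.53) or marked GFP library 4 (2.07), for Chek1 without marked GFP library 3 (2.27) and for Exo1 without marked Thy1.1 library 1 (2.01) or 2 (4.27).

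Other genes of the same pathways were read from a list of their own. Of 154 further repair genes in the table, all tested, 24 were higher (15.6%) and 5 lower (3.25%) in marked GFP than in marked Thy1.1 cells, with a median of 0.13. All tested genes were 8.01% higher and 6.82% lower in that comparison, with a median of -0.01. Fignl1, which encodes an ATPase of recombination, rose from 4.48 and 5.28 CPM to 43.8 and 28.85 CPM, by 2.90 ± 0.34 (edgeR adjusted p = 0.00267). The single-strand binding genes Rpa1 and Rpa2 rose by 0.64 ± 0.10 and 0.96 ± 0.14, and Tipin, of the complex that steadies stalled forks, by 1.30 ± 0.19. Parp3, a relative of Parp1, fell by 1.46 ± 0.11, from 95.6 and 92.0 CPM to 33.7 and 34.3 CPM (edgeR adjusted p = 0.000834), and Shprh, a ubiquitin ligase gene of damage bypass, fell by 0.68 ± 0.15. Hus1, of the clamp that activates ATR, rose by 0.94 ± 0.22 and, like Msh6, had its lowest values in marked Thy1.1 cells (8.10 and 8.55 CPM against 12.1 to 22.8 CPM).

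Of 30 tested targets of p53, which transcribes arrest and death genes after damage, 2 were higher and 2 lower (6.67% each), with a median of 0.27. These shares were near those of all genes (8.01% and 6.82%). Plk3 rose by 1.58 ± 0.18 and Trp53inp1 by 0.64 ± 0.13, whereas Fas, a death receptor gene also set by T cell activation, was lower at -0.98 ± 0.12 and Rrm2b, a ribonucleotide reductase subunit gene, at -0.57 ± 0.12. Proliferation genes were mostly called. Of 30 replication genes 28 rose (median 1.44) and of 30 mitosis genes 27 rose (median 2.83), and 0 fell in either list. Mcm2 rose by 1.27 ± 0.11, Top2a by 1.99 ± 0.28 and Mki67 by 2.48 ± 0.40. The summed mitosis genes lay at 202 and 170 CPM in marked Thy1.1, 222 and 200 CPM in unmarked Thy1.1, 547 and 384.5 CPM in unmarked GFP and 1151 and 857 CPM in marked GFP cells. The part of proliferation in the rise of the repair genes was not tested.

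**Figure D4:**
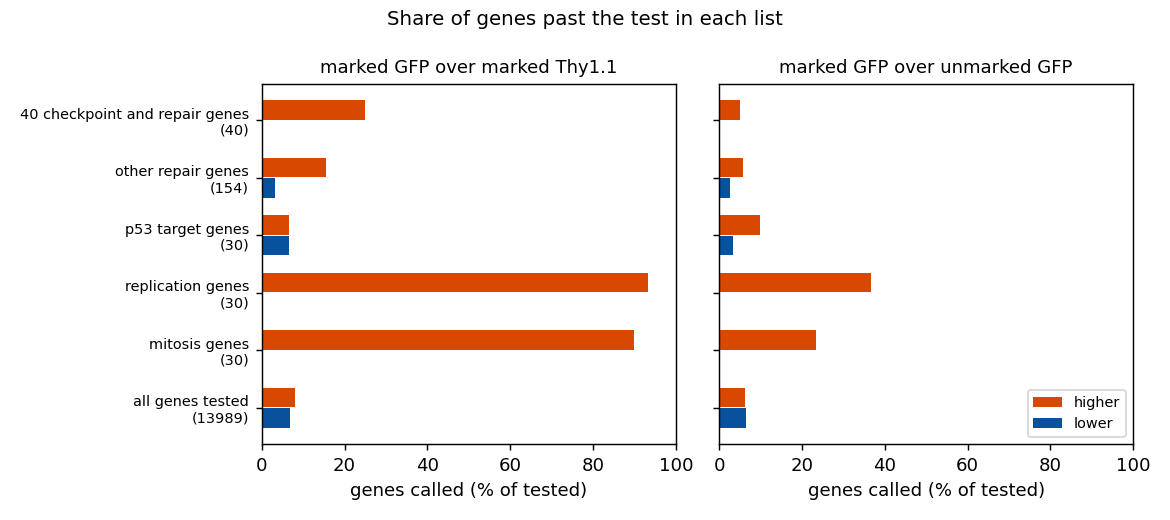
Share of tested genes called higher (orange) or lower (blue) for each list, with the number tested in brackets, in marked GFP over marked Thy1.1 (left) and over unmarked GFP cells (right). The 40 genes reach 25% higher on the left and 5% on the right, where all genes reach 8.01% and 6.24% and the replication genes 93.3% and 36.7%.

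Because 10 of the genes passed in the same contrast, promoter sequences were searched for letters that cell cycle factors bind. RefSeq windows (GRCm38.p6) were found for 32 of the 40 genes, and not for Rad54b, Xrcc2, Exo1, Rbbp8, Rad50, Nbn, Fancd2 and Prkdc. The 250 bases before each start were read on both strands for 3 kinds of word. The E2F-type words were TTCCCGC as the first, then TTGGCGC, with TTGCCGC as another and TTCGCGC as the last. The word of NF-Y was CCAAT, and that of the cell cycle homology element TTTGAA. Words on opposite strands can overlap, as the 2 E2F words of Topbp1 do. An E2F word was in 12 of the 34 windows of these genes (35.3%) and in 7.89% of all 32851 windows in the table. None of the 8 windows of the 7 risen genes with a sequence held an E2F word, and 12 of 26 windows of the other genes did (46.2%). Rad54l has 2 windows 1 base apart, and Lig4 has 2 that each hold an E2F word. By gene, an E2F word was found for 11 of the 25 others (44.0%) and 9.01% of all genes. CCAAT was found for 4 of the 7 risen genes (57.1%), 52% of the others and 37.5% of all genes. The windows of the risen genes Chek1, Neil3 and Parp1 held none of the words. TTTGAA was in 1 of the 34 windows (2.94%), that of Bard1, and in 16% of all windows. These are matches of letters, and their absence says only that these words are not in these windows.

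The 150 bases before the start are shown for 3 risen genes that hold CCAAT and no E2F word, and then for 3 genes that did not pass and hold an E2F word, 5′ to 3′ on the gene's strand. Capitals mark CCAAT or its reverse ATTGG, and the E2F words or their reverse.
Brip1, chr11:86201194-86201343, minus strand: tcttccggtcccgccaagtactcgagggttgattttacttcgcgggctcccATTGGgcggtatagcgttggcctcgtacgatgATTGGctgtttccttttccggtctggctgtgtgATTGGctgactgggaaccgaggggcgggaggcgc
Rad51ap1, chr6:126939588-126939737, minus strand: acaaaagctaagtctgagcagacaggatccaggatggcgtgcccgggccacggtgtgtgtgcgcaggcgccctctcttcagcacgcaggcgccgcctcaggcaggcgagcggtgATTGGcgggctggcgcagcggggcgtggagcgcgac
Msh6, chr17:87974900-87975049, plus strand: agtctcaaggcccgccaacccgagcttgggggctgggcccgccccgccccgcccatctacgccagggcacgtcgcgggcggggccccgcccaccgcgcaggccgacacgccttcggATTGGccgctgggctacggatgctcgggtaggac
Topbp1, chr9:103305177-103305326, plus strand: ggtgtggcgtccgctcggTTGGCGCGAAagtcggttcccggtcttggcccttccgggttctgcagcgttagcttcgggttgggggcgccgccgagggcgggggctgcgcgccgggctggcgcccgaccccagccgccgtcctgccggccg
Fancm, chr12:65075453-65075602, plus strand: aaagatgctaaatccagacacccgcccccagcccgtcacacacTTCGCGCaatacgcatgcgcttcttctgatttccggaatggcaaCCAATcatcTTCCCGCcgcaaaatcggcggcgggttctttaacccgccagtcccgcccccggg
Xrcc6, chr15:82016219-82016368, plus strand: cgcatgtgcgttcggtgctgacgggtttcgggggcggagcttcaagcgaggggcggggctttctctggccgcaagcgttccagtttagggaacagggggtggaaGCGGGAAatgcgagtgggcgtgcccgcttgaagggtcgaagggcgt
Brip1, whose RNA rose by 2.65 on the log2 scale, has ATTGG at 3 places in its window, while Rad51ap1 and Msh6 each show it once in the stretch printed. Topbp1 (-0.05) and Fancm (0.77) each hold an E2F word at 2 places, and Xrcc6 (0.13) at 1. Fancm also holds CCAAT. The genes shown were picked by their words, and CCAAT was about as common among the risen genes (57.1%) as among the others (52%).

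Within GFP cells, marked were compared with unmarked cells. Of the 40 genes 2 were higher and 0 lower, or 5%, where 6.24% of all tested genes were higher and 6.40% lower, so the share was near the background. The 2 genes were recombination genes. Brip1 rose from 7.20 and 9.39 to 24.3 and 17.1 CPM, by 1.32 ± 0.34 (edgeR adjusted p = 0.0427), and Rad51ap1 from 5.49 and 5.06 to 11.2 and 20.6 CPM, by 1.59 ± 0.41 (edgeR adjusted p = 0.0435). The median over the 40 genes was 0.21. Rbbp8 was at 0.51 ± 0.16 (edgeR adjusted p = 0.0744), Neil3 at 1.37 ± 1.04, Chek1 at 0.80 ± 0.66 and Rad54l at 1.05 ± 0.44. Brca2 stood at -0.89 ± 0.30 (edgeR adjusted p = 0.0953), with unmarked GFP libraries at 14.1 and 16.2 CPM above marked ones at 9.385 and 7.01 CPM. In the same comparison 11 of 30 replication genes and 7 of 30 mitosis genes rose and 0 fell. Both calls lay close to the threshold, and each held in 1 of the 8 fits with a library left out. Neither passed with no filter on low counts (edgeR adjusted p = 0.056 for Brip1 and 0.0562 for Rad51ap1) or in a fit of the GFP populations alone (0.108 and 0.113). Without unmarked GFP library 3, which held the myeloid genes, Brip1 was at 1.14 and Rad51ap1 at 1.65, neither past the threshold. Xrcc4 passed as lower without marked GFP library 3 (-1.29, edgeR adjusted p = 0.00938), and Atm without marked GFP library 4 (-1.14, edgeR adjusted p = 0.0157). This comparison shares the marked GFP libraries with the one above, and they are not independent.

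Between unmarked cells, GFP against Thy1.1, 0 of the 40 genes were higher and 0 lower by edgeR, where 0.0643% of all genes were higher and 0.100% lower. At an unadjusted p under 0.05, 5 were higher and 3 lower, against 846 and 816 of all 13989 genes. DESeq2 called Rbbp8 higher (0.59) and Atr lower (-0.64), where it called 2.36% of all genes higher and 1.79% lower, so these counts were near the background. Rad54l was at 1.46 ± 0.45 (edgeR adjusted p = 0.254), Fancd2 at 1.48 ± 0.56 (0.364), Brip1 at 1.02 ± 0.34 (0.292) and Brca2 at 1.08 ± 0.30 (0.214). Each had both unmarked GFP libraries above both unmarked Thy1.1 libraries, a separation that 2 libraries a side meet easily. Atr had 68.3 and 77.4 CPM in unmarked Thy1.1 and 45.4 and 47.5 CPM in unmarked GFP cells (-0.65 ± 0.15, edgeR adjusted p = 0.149). Separated the same way, with GFP lower, were Rad50 (95.6 and 99.6 against 59.8 and 77.3 CPM, -0.51 ± 0.16, edgeR adjusted p = 0.273) and Palb2 (17.25 and 12.33 against 8.91 and 9.81 CPM, -0.66 ± 0.28, edgeR adjusted p = 0.406).

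Within Thy1.1 cells, marked against unmarked, 0 of the 40 genes were called in either direction by edgeR, and so were 0% of all tested genes. At an unadjusted p under 0.05, 0 members were higher and 6 lower, against 489 higher and 574 lower among all 13989 genes. DESeq2 called Msh6 alone of the 40, as lower (-0.83, DESeq2 adjusted p = 0.000211), and 73 genes higher and 75 lower in all. By edgeR Msh6 was at -0.84 ± 0.14 (adjusted p = 0.315), from 101.6 and 126.6 CPM in unmarked to 59.0 and 68.5 CPM in marked Thy1.1 cells without overlap. Topbp1 was at -0.68 ± 0.18 (edgeR adjusted p = 0.491), from 131.2 and 95.4 to 68.7 and 73.1 CPM. Of the 40 genes, 29 were below 0 with a median of -0.18.

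The interaction asked whether the difference between marked and unmarked cells depended on the reporter. It was called for 0 of the 40 genes, where 0.0929% of all tested genes were called higher and 0.350% lower, and the smallest adjusted p was 0.158, for Rbbp8 (0.94 ± 0.22, edgeR). At an unadjusted p under 0.05, 10 were higher and 1 lower, against 824 and 968 of all 13989 genes. DESeq2 called 3 higher, Rbbp8 (0.91), Msh6 (0.71) and Neil3 (4.30), where it called 1.3% of all genes higher and 2.76% lower. For Msh6 the edgeR interaction was 0.74 ± 0.20 (adjusted p = 0.198), made of a label difference of -0.10 ± 0.14 in GFP and -0.84 ± 0.14 in Thy1.1 cells. Without marked GFP library 3 the interaction was called for Xrcc4 (-1.45, edgeR adjusted p = 0.0391), which otherwise stood at -0.77 ± 0.41.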

How the data were processed

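PolyA RNA from sorted cells went through SMART-Seq v4 amplification and was read as 50-nt paired ends, per the labels' protocols. The deposited table holds whole-number counts for each gene, not normalized, as its values show. The submitters' processing notes name DESeq, while for aligner, counter and build: not given in the sources used here. Of 24116 rows, 8 had no gene name, held 0.0215% to 0.0264% of a library's counts and were left out. GFP columns (numbered 3 and 4) were matched to their population only.

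Genes with enough counts (edgeR filter, minimum count 10) left 13989. Libraries were scaled by TMM, and a quasi-likelihood model with 1 mean for each population (R 4.3.3, edgeR 4.0.16, limma 3.58.1) took in the 8 libraries, leaving 4 residual degrees of freedom. P-values were adjusted over all tested genes, at a threshold of 0.05. CPM is the count over the TMM-scaled total of named genes, as edgeR's cpm function scales it, for which 3 counts, the limit a count of 0 allows, are 0.0614 to 0.0806 CPM, counting error only. Standard errors come from the F statistic. The pipeline was tested on simulated data. Alternatives were RLE size factors, library totals, other filters, DESeq2 1.42.0, fits of 2 populations, replicate blocks and each library left out, and one without both GFP libraries numbered 3, chosen after seeing the data. The members, gene lists and tests were chosen with earlier results of these data known. Within each role, up to 4 genes with the smallest adjusted p in marked GFP against marked Thy1.1 cells and the 1 with the largest were to be described in full, and further genes were added after their values were seen. Of other genes, up to 4 per list were named, those of smallest adjusted p whose mean reached 5 CPM. Exon lengths and overlaps came from GENCODE M21, where all 40 symbols were found, Mre11a through its newer name.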

Additional observations from a re-analysis of the deposited data

How the results depend on the processing

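Each population had 2 libraries, which limits every test. In marked GFP against marked Thy1.1 cells, 8 genes were higher with RLE size factors or library totals, against 10 in the main fit. Of all tested genes, 7.48% and 6.33% were higher in those settings, in that order. In a fit of these populations alone 7 were higher, where 6.69% of all tested genes were. DESeq2 called 11 higher and 1 lower (Atm), where it called 11.2% of all genes higher and 11.4% lower. Leaving out 1 library gave 3 to 9 higher and 0 to 1 lower. Without both GFP libraries numbered 3, a setting chosen after seeing the data, 6 were higher and 1 lower (Xrcc4). In marked against unmarked GFP cells the 2 higher calls became 0 with no filter or in the fit of these populations alone. Of all tested genes, 3.85% and 0.815% were higher in those settings. DESeq2 called 3 of the 40 higher, where it called 10% of all genes higher. Leaving out 1 library gave 0 to 1 higher and 0 to 1 lower, and leaving out both libraries numbered 3 gave 1 higher and 1 lower. Between unmarked cells DESeq2 called 1 higher and 1 lower, within Thy1.1 cells 0 higher and 1 lower, and for the interaction 3 higher. In each of these edgeR called 0. Over all genes DESeq2 called 2.36% higher and 1.79% lower between unmarked cells and 0.522% and 0.536% within Thy1.1 cells. For the interaction it called 1.3% and 2.76%. The interaction had 0 to 1 lower calls with 1 library left out and 1 without both libraries numbered 3. The cause of these changes was not tested, and no called value reversed.

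Pairing by library number was checked. Deviations of same-numbered libraries correlated at 0.138 for Thy1.1 and 0.153 for GFP, and odd against even numbers across reporters at 0.0794 to 0.115. The labels give these numbers no shared origin. Bst2, named after its values were seen, was lower in the odd library of every population (35.4 to 55.4 CPM) than in the even one (91.8 to 108.5 CPM). With the replicate block, or one of odd against even numbers, 10 genes were higher and 1 lower (Atm) in marked GFP against marked Thy1.1 cells. Over all tested genes, 8.81% and 8.29% were higher there and 8% and 7.53% lower. In marked against unmarked GFP cells 0 were higher with either block, where 7.16% and 6.48% of all tested genes were. Depth was even, and for genes at a few CPM, such as Rad54b and Bard1, the scatter between libraries limits what could be called.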
